A study of Mus musculus with 10 samples.

Results

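Red blood cell precursors destroy their own organelles before they enter the blood, and 10 genes of that programme are described here across sorted cells of spleen and tumor. The genes were chosen by name for their known parts in mitophagy, autophagy, ubiquitin remodelling and nuclear condensation. They are Bnip3l, Foxo3, Ulk1, Map1lc3b, Gabarapl2, Xpo7, Fbxo7, Ube2o, Ube2h and Trim58, and they make up 10 of the 17603 genes whose values could be summed by symbol. RNA was sequenced from wild-type C3H/HeN females that carried tumors of SCC7, a mouse squamous carcinoma line, and the samples are marked as HNSCC. Tumor CD45+ cells gave 4 libraries, spleen CD45+ cells 3 and spleen CD45- cells 3. All of the groups came from tumor-bearing animals, so no tumor-free control enters any comparison, and the sources used here do not give the age of the mice. Each sorted population is called EPC in the labels, which do not spell the abbreviation out and name no sorting marker other than CD45, which is found on leukocytes. Whether the replicates are different mice is not stated, so each p-value reflects the variation among these libraries alone, and that variation may be technical.

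In the last divisions of the erythroblast, mitochondria are taken up by autophagosomes. The outer membrane receptor made by Bnip3l tethers them to small proteins of the LC3 and GABARAP families, and the Ulk1 kinase starts the membrane's formation. In parallel, a wave of ubiquitination marks ribosomes and other proteins for the proteasome, while the nucleus shrinks and is pushed out. Foxo3 is a transcription factor that in mouse erythroblasts drives autophagy genes and late maturation genes. The genes are therefore known as a group for their high expression late in erythroid maturation, and several of them are also used by many other cells.

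The labelled cell type was first checked against erythroid genes. Levels are in FPKM, fragments scaled to transcript length and to library depth, at an implied depth of 17800000 to 20900000 fragments per library, where 1 fragment was worth 0.0478 to 0.0563 FPKM for a transcript of 1 kilobase. Klf1, an erythroid transcription factor, stood at 0.09 to 0.45 FPKM in tumor CD45+, 271 to 613 FPKM in spleen CD45+ and 704 to 788 FPKM in spleen CD45- libraries. Gata1, another, stood at 0 to 0.27 FPKM, 109 to 223 FPKM and 230.2 to 264 FPKM in the same groups, so these defining erythroid markers were near 0 in tumor libraries and high in both splenic groups. Globin transcripts took 1.80% to 10.4% of the summed FPKM in tumor CD45+, 29.4% to 52.2% in spleen CD45+ and 62.5% to 63.5% in spleen CD45- libraries. The 13 markers of monocytes and macrophages summed to 25739 to 47186 FPKM in tumor CD45+, 1414 to 4796 FPKM in spleen CD45+ and 68.5 to 123 FPKM in spleen CD45- libraries. The 13 granulocyte markers summed to 69.5 to 1771 FPKM, 23233 to 77769 FPKM and 391 to 526 FPKM in the same groups. The 7 epithelial markers summed to 312 to 406 FPKM in tumor CD45+ libraries, 0.39 to 2.84 FPKM in spleen CD45+ and 0.03 to 0.84 FPKM in spleen CD45- libraries. Only 3 of the 7 reached 1 FPKM in every tumor CD45+ library, and Krt8 and Krt18 had means of 219 and 117 FPKM there. Krt5 was listed at 0 in every splenic library and Krt14 in every spleen CD45+ library, which says nothing of their level in tumor. The 9 B cell markers summed to 7.23 to 9.57 FPKM in tumor CD45+, 153 to 1404 FPKM in spleen CD45+ and 26.7 to 33.5 FPKM in spleen CD45- libraries, and 11 T and NK cell markers to 4.43 to 34.8, 54.6 to 321 and 18.8 to 19.2 FPKM in the same groups. The 7 megakaryocyte and platelet markers summed to 600.3 to 873 FPKM in tumor CD45+, 19.5 to 29.3 FPKM in spleen CD45+ and 34.2 to 37.2 FPKM in spleen CD45- libraries, and the 9 of endothelium and stroma to 132 to 201, 5.58 to 38.7 and 0.67 to 2.24 FPKM in the same groups. Neither of these lists moved as one between tumor CD45+ and spleen CD45+ cells. Of 5 tested platelet markers 2 were higher by limma and 3 lower. Pf4 alone had a mean of 667 FPKM in tumor CD45+ libraries, while Gp9 had 0.132 FPKM there and 14.8 FPKM in spleen CD45+ libraries. Of the 9 of endothelium and stroma 7 were higher and 2 lower, where 37.7% of all genes tested were called higher and 26.0% lower. For 8 of the 9 the filter on low values left only 1 direction. Col3a1 and Col1a2 had means of 99.0 and 46.1 FPKM in tumor CD45+ libraries. Pecam1 and Erg, the 2 lower ones, had 1.99 and 0.265 FPKM there, against 19.4 and 2.45 FPKM in spleen CD45+ libraries. The part of these other cell types in the results that follow was not tested.

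A pair of libraries stood apart within their groups. Spleen CD45+ replicate 2 had the lowest globin share of its group and a Ptprc (CD45) level of 39.2 FPKM, against 265 and 153 FPKM in replicates 1 and 3. Tumor CD45+ replicate 1 held 10.4% of its FPKM in globins, against 1.80% to 1.87% in replicates 2 to 4. Its Hba-a1 level, an alpha globin whose reads are shared with a near-identical copy, was 6.60 times the mean of the other tumor libraries, and the level of Slc4a1, the anion exchanger of the red cell membrane, 11.5 times that mean.

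Tumor CD45+ cells were set against spleen CD45+ cells to ask how the programme differed between tissues within the same CD45 gate. All 9 tested genes of the set fell in tumor CD45+ cells and none rose, also at an unadjusted p below 0.05. Calls were made at a Benjamini-Hochberg adjusted p below 0.05 by limma, and 26.0% of all 11463 genes tested were called lower and 37.7% higher. Foxo3 stayed below 1 FPKM in every library and was not tested. Trim58 was below 1 FPKM in every tumor library. The filter on low values therefore left it no call but a fall, and no order but tumor below spleen CD45+. The median log2 difference of the tested genes was -2.08, beside 0.20 for all genes tested, and it is the value of Bnip3l, so it does not depend on the fitted value of Trim58. The fall spanned a wide range, with Map1lc3b lower by a log2 difference of -0.63 ± 0.15 and Xpo7 by -4.17 ± 0.50 (SE), while Trim58 was listed at 0 in 3 of 4 tumor libraries. Every tumor library lay below every spleen CD45+ library for all 9 tested genes, where 28.1% of all genes tested had every tumor value below and 38.4% every tumor value above, and the same was true of Foxo3. Fewer cells of a type and less RNA per cell cannot be told apart in such bulk libraries. All 9 also fell with spleen CD45+ replicate 2 and tumor CD45+ replicate 1 both left out. Beside this fall stood that of late red cell genes, a reference list of 20 genes chosen for haemoglobin synthesis, the red cell membrane and erythroid regulation. All 20 fell, with a median log2 difference of -6.95, and 10 of them were below 1 FPKM in every tumor library, so the filter on low values left those no call but a fall. The difference between the medians of both lists was not tested.

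Spleen CD45+ cells were set against spleen CD45- cells to ask how the programme differed across the CD45 gate within one organ. Of the 9 tested genes Ulk1, Fbxo7 and Ube2o fell in spleen CD45+ cells by limma and none rose, also at an unadjusted p below 0.05, where 5.02% of 9728 genes tested were called lower and 50.5% higher. The other 6 had lower means in spleen CD45+ cells but did not pass. The count was 4 without spleen CD45+ replicate 2, with Trim58 added, 1 without spleen CD45- replicate 2 and 0 without spleen CD45- replicate 1. The median log2 difference of the 9 was -0.78, beside 0.67 for all genes tested, and the distance between these medians was -1.45, or -0.86 without spleen CD45+ replicate 2. Spleen CD45+ values of Ulk1, Map1lc3b, Fbxo7, Ube2o and Trim58 lay wholly below those of spleen CD45- cells, where 7.24% of all genes tested lay wholly below and 59.0% wholly above, and the groups overlapped for Bnip3l, Foxo3, Gabarapl2, Xpo7 and Ube2h. Late red cell genes fell for 17 of 20, with a median log2 difference of -0.88, for 20 of 20 after trimmed-mean scaling (-1.63) and for 5 of 20 after scaling to a common sum (-0.49). The count of the set depended on the scaling too. Trimmed-mean scaling put the median of all genes at 0.02, the median of the 9 at -1.53 and the count that fell at 8. A fit on values scaled to a common sum in every library put them at 0.97, -0.40 and 0. The distance to the median of all genes stayed between -1.38 and -1.55 over these scalings. A scaling divides all genes of a library by the same factor and shifts both medians nearly alike, so that distance could hardly change. Both comparisons use the same spleen CD45+ libraries, so their results are not independent of each other.

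**Figure D1:**
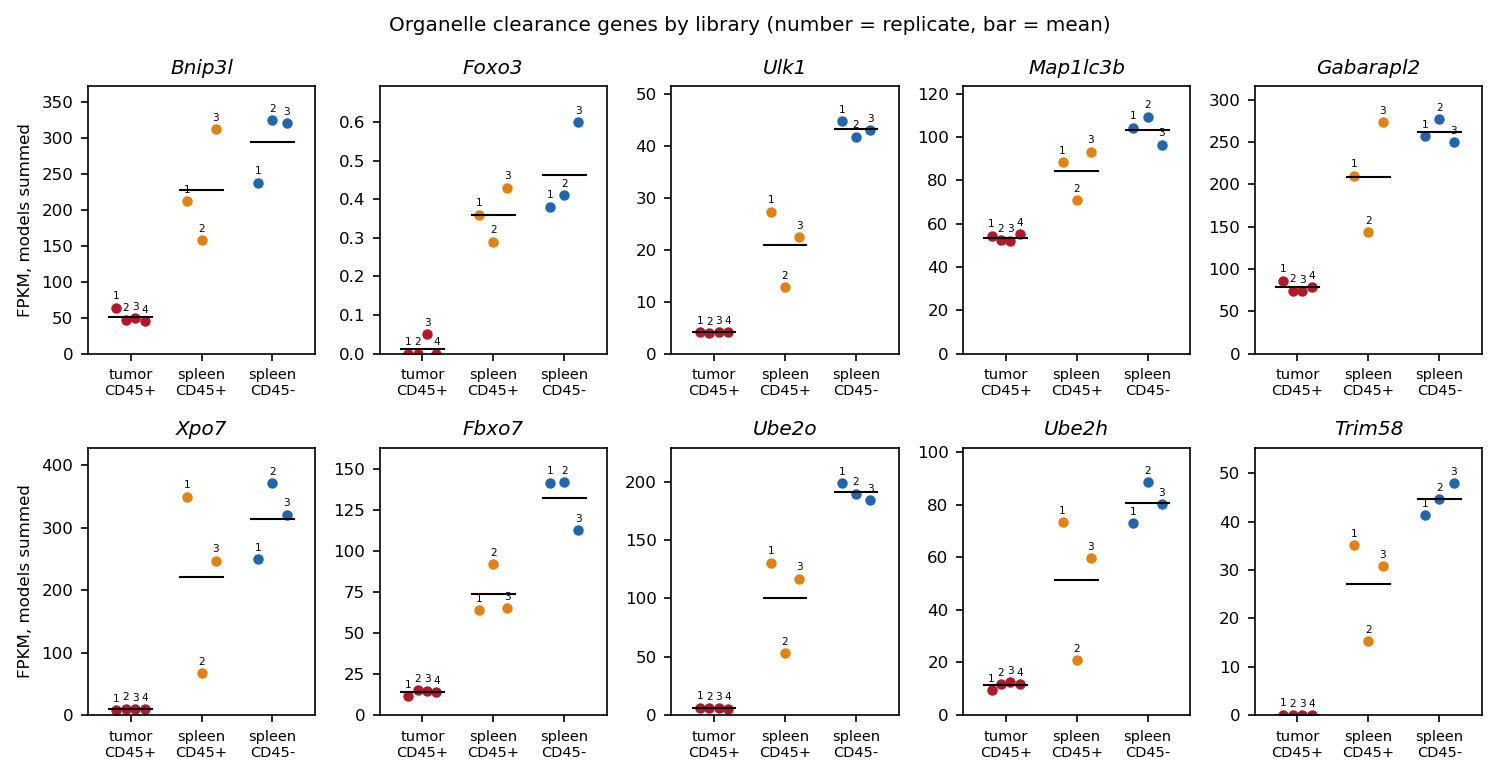
FPKM of each of the 10 genes (models of a gene summed, linear axis from 0) in tumor CD45+ (n = 4), spleen CD45+ (n = 3) and spleen CD45- libraries (n = 3); points are libraries numbered by replicate and bars are group means. Tumor values lie below all splenic values for every gene, and spleen CD45+ replicate 2 is the lowest of its group for all genes except Fbxo7.

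**Figure D2:**
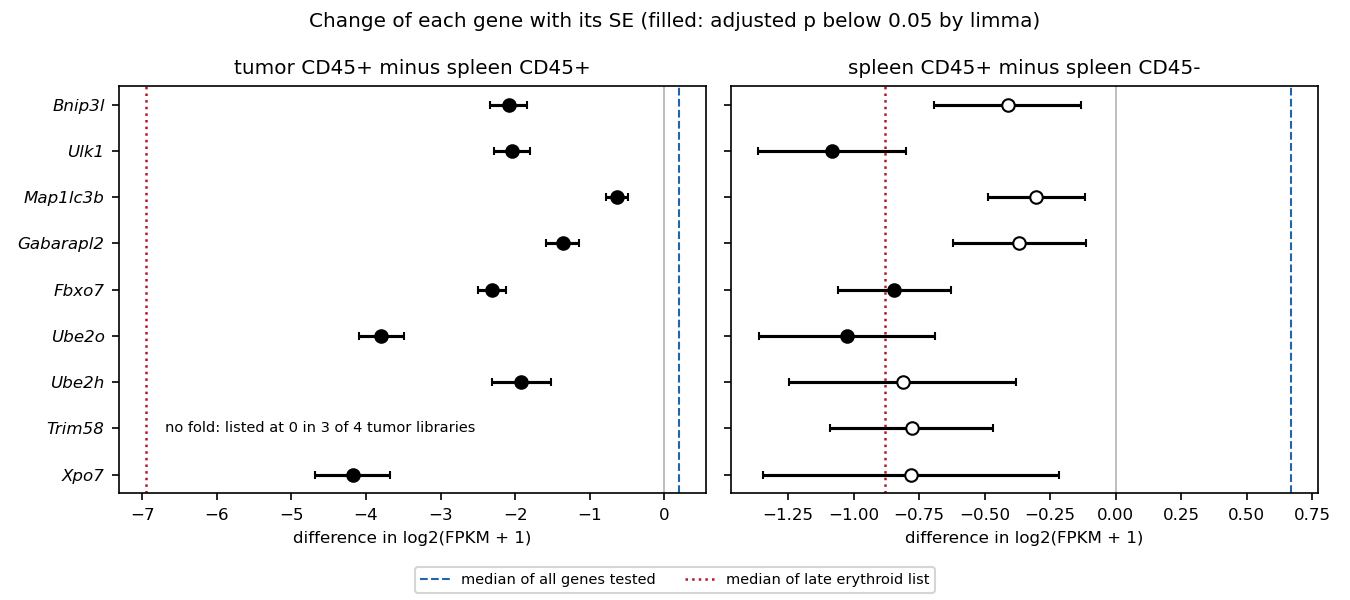
Difference in log2(FPKM + 1) of each tested gene, with its SE from limma, for tumor CD45+ minus spleen CD45+ (left) and spleen CD45+ minus spleen CD45- (right); filled points passed an adjusted p of 0.05, and the lines mark the medians of all genes tested and of 20 late red cell genes. All plotted genes passed in the tumor comparison, where no fold is drawn for Trim58, and 3 passed in the splenic one.

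Bnip3l (Entrez gene 12177, chromosome 14 of GRCm38.p6, 66985238 to 67008877), the mitophagy receptor also called NIX, had 63.8, 47.1, 49.0 and 45.2 FPKM in tumor CD45+ libraries, 212, 158 and 311 FPKM in spleen CD45+ libraries and 237, 324 and 320.3 FPKM in spleen CD45- libraries. The tumor values were close together and far below the splenic ones, and both splenic groups overlapped. The log2 difference was -2.08 ± 0.25 (SE) between tumor and spleen CD45+ cells (adjusted p = 0.000219 by limma) and -0.41 ± 0.28 between spleen CD45+ and spleen CD45- cells (adjusted p = 0.249), or -0.18 without spleen CD45+ replicate 2 (0.456). Its 3 RefSeq models did not move alike. The predicted model XM_006518471 had 19.0, 1.31, 2.03 and 1.29 FPKM in tumor CD45+ libraries, 150.4, 104 and 232 FPKM in spleen CD45+ libraries and 185, 259 and 268 FPKM in spleen CD45- libraries. The curated model NM_009761 had 44.6, 45.5, 46.8 and 43.6 FPKM, 61.1, 53.3 and 78.5 FPKM, and 51.6, 64.6 and 51.4 FPKM in the same groups. The first model fell by 5.19 on the log2 scale (SE 0.745, adjusted p = 0.000578 by limma over all models) and by 5.94 without tumor CD45+ replicate 1. The second had a log2 difference of -0.48 ± 0.17, and its adjusted p of 0.0404 rose above 0.05 without any one of the tumor libraries (0.0728 to 0.0985), without spleen CD45+ replicate 1 or 3 (0.0616 and 0.0993) and in the common-sum fit (0.403). XM_006518471 held 29.8%, 2.78%, 4.14% and 2.85% of the gene's FPKM in tumor CD45+ libraries and 66.05% to 74.5% in spleen CD45+ libraries, which did not overlap. With 10 such shares tested over 5 genes, this difference had an exact two-sided permutation p of 0.057, the smallest that 4 libraries against 3 can give, and 0.143 after Benjamini-Hochberg adjustment. Between the 66.05% to 74.5% of spleen CD45+ and the 78.1% to 83.7% of spleen CD45- libraries, the difference had an exact permutation p of 0.10, the smallest that 3 against 3 can give, and an adjusted p of 0.20. The exons that set both models apart are not analysed here, and the sources used here do not give how the authors' program divided reads between overlapping models.

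Foxo3 (Entrez gene 56484, chromosome 10, 42181845 to 42276695), the transcription factor, was barely detected in any group. It had 0, 0, 0.05 and 0 FPKM in tumor CD45+ libraries, 0.36, 0.29 and 0.43 FPKM in spleen CD45+ libraries and 0.38, 0.41 and 0.60 FPKM in spleen CD45- libraries. Tumor values lay below splenic ones and both splenic groups overlapped, at levels that rest on few fragments. These values are those of the model NM_019740 alone, and NM_001376967, a second model of the gene in RefSeq, was not analysed here. The summed value can therefore be lower than the gene's full level. Foxo4, another member of the family, was at 5.11 ± 1.01 FPKM in tumor CD45+ (SD, n = 4), 34.5 ± 4.54 FPKM in spleen CD45+ and 57.5 ± 2.28 FPKM in spleen CD45- libraries (SD, n = 3 each).

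Ulk1 (Entrez gene 22241, chromosome 5, 110784489 to 110810120), the kinase that starts autophagosome formation, had 4.14, 3.95, 4.08 and 4.14 FPKM in tumor CD45+ libraries, 27.3, 12.7 and 22.4 FPKM in spleen CD45+ libraries and 44.8, 41.8 and 43.1 FPKM in spleen CD45- libraries. The 3 groups did not overlap, and only spleen CD45+ libraries varied widely. Ulk1 fell by 2.04 on the log2 scale (SE 0.24) between tumor and spleen CD45+ cells (adjusted p = 0.000227 by limma). Between spleen CD45+ and spleen CD45- cells it fell by 1.08 (SE 0.28, adjusted p = 0.014), and by 0.78 without spleen CD45+ replicate 2. That splenic call was lost without spleen CD45- replicate 1 (adjusted p = 0.0557) and in the common-sum fit (0.0765). Its main model NM_009469 held 59.8% to 82.85% of the FPKM in tumor CD45+, 64.2% to 74.3% in spleen CD45+ and 68.6% to 74.7% in spleen CD45- libraries. These shares overlapped, with an exact permutation p of 0.80 for the tumor and 0.50 for the splenic comparison.

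Both ATG8-type members changed least. Map1lc3b (Entrez gene 67443, chromosome 8, 121590438 to 121598760), which encodes LC3B, had 54.4, 52.4, 52.2 and 55.2 FPKM in tumor CD45+ libraries, 88.3, 70.8 and 93.2 FPKM in spleen CD45+ libraries and 104, 109 and 96.5 FPKM in spleen CD45- libraries. The 3 groups did not overlap, though they lay closer together than for the other genes. It fell by 0.63 on the log2 scale (SE 0.15) between tumor and spleen CD45+ cells (adjusted p = 0.00601 by limma), a call that the common-sum fit ended (0.161). Between spleen CD45+ and spleen CD45- cells the log2 difference of -0.30 ± 0.18 did not pass (adjusted p = 0.202). It was -0.19 without spleen CD45+ replicate 2 and turned to 0.08 in the common-sum fit. Gabarapl2 (Entrez gene 93739, chromosome 8, 111940703 to 111952915), a GABARAP-type protein also called GATE-16, had 86.2, 74.3, 74.0 and 78.2 FPKM in tumor CD45+ libraries, 209.9, 144 and 273 FPKM in spleen CD45+ libraries and 257, 277 and 249.8 FPKM in spleen CD45- libraries. Tumor values were low and tight, and both splenic groups overlapped. It fell by 1.36 (SE 0.22) between tumor and spleen CD45+ cells (adjusted p = 0.0011). The splenic log2 difference of -0.37 ± 0.25 missed the threshold (adjusted p = 0.254). It was -0.12 without spleen CD45+ replicate 2 (0.496) and 0.02 in the common-sum fit.

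The ubiquitin enzymes fell further. Fbxo7 (Entrez gene 69754, chromosome 10, 86020449 to 86051873), a substrate adaptor of SCF ubiquitin ligases, had 11.6, 15.2, 14.7 and 14.0 FPKM in tumor CD45+ libraries, 63.9, 91.8 and 65.2 FPKM in spleen CD45+ libraries and 141, 141 and 113 FPKM in spleen CD45- libraries. The 3 groups did not overlap, and Fbxo7 was the only gene of the set for which spleen CD45+ replicate 2 was the highest of its group. It fell by 2.31 on the log2 scale (SE 0.18) between tumor and spleen CD45+ cells (adjusted p = 2.49e-05 by limma) and by 0.84 (SE 0.22) between spleen CD45+ and spleen CD45- cells (adjusted p = 0.0127). The splenic fall was 1.01 without spleen CD45+ replicate 2. It lost its call without spleen CD45- replicate 1 or 2 (adjusted p = 0.0563 and 0.0589) and in the common-sum fit (0.232).

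Of the curated models of Fbxo7, 2 were matched to GENCODE M21, where they start 217 bases apart on the + strand of chromosome 10. Their levels parted in tumor. NM_001310745 had 1.17, 0.45, 0.82 and 1.21 FPKM in tumor CD45+ libraries, 28.5, 41.0 and 32.3 FPKM in spleen CD45+ libraries and 77.1, 74.6 and 55.5 FPKM in spleen CD45- libraries. NM_153195 had 9.25, 13.6, 12.6 and 11.5 FPKM, 27.0, 37.0 and 24.0 FPKM, and 50.6, 46.9 and 41.8 FPKM in the same groups. Both models were near each other in spleen, while in tumor the second stood far above the first. Between tumor and spleen CD45+ cells the first fell by 4.20 on the log2 scale (SE 0.22, adjusted p = 3.34e-06 by limma) and the second by 1.24 (SE 0.21, adjusted p = 0.00136). NM_001310745 held 2.96% to 10.1% of the gene's FPKM in tumor CD45+ libraries, 44.6% to 49.5% in spleen CD45+ and 49.3% to 54.5% in spleen CD45- libraries. The tumor difference in share had an exact permutation p of 0.057 and an adjusted p of 0.143, and the splenic one 0.20 and 0.333. In the GENCODE M21 transcripts matched to these models, NM_153195 opens with an exon at chr10:86021972-86022144 and ends at base 86051873, and NM_001310745 opens at chr10:86022189-86022330 and ends at base 86048323. Of their 9 exons each, 6 are identical, so the models also differ in the length of the last exon, which takes 4152 and 602 bases. The + strand before each first exon is printed because the models part there, chr10:86021679-86021971 before NM_153195 and chr10:86022145-86022188 between both first exons (reference sequence of GRCm38.p6 from RefSeq's promoter windows); neither holds a match to the GATA or CACCC motifs defined further on, so no letter is in capitals.
Fbxo7 before NM_153195: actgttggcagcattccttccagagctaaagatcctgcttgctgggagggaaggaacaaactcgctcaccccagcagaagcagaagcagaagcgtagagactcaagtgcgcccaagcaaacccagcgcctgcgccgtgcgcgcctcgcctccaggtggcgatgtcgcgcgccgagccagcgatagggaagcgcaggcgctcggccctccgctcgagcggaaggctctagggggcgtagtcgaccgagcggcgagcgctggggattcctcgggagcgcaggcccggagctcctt
Fbxo7 before NM_001310745: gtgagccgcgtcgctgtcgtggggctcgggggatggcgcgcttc
The stretches hold 65.9% and 75% G or C, with 30 and 7 CpG dinucleotides. They end where the GENCODE exons begin, while RefSeq's windows place a start inside each stretch, so part of each lies after a RefSeq start.

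**Figure D3:**
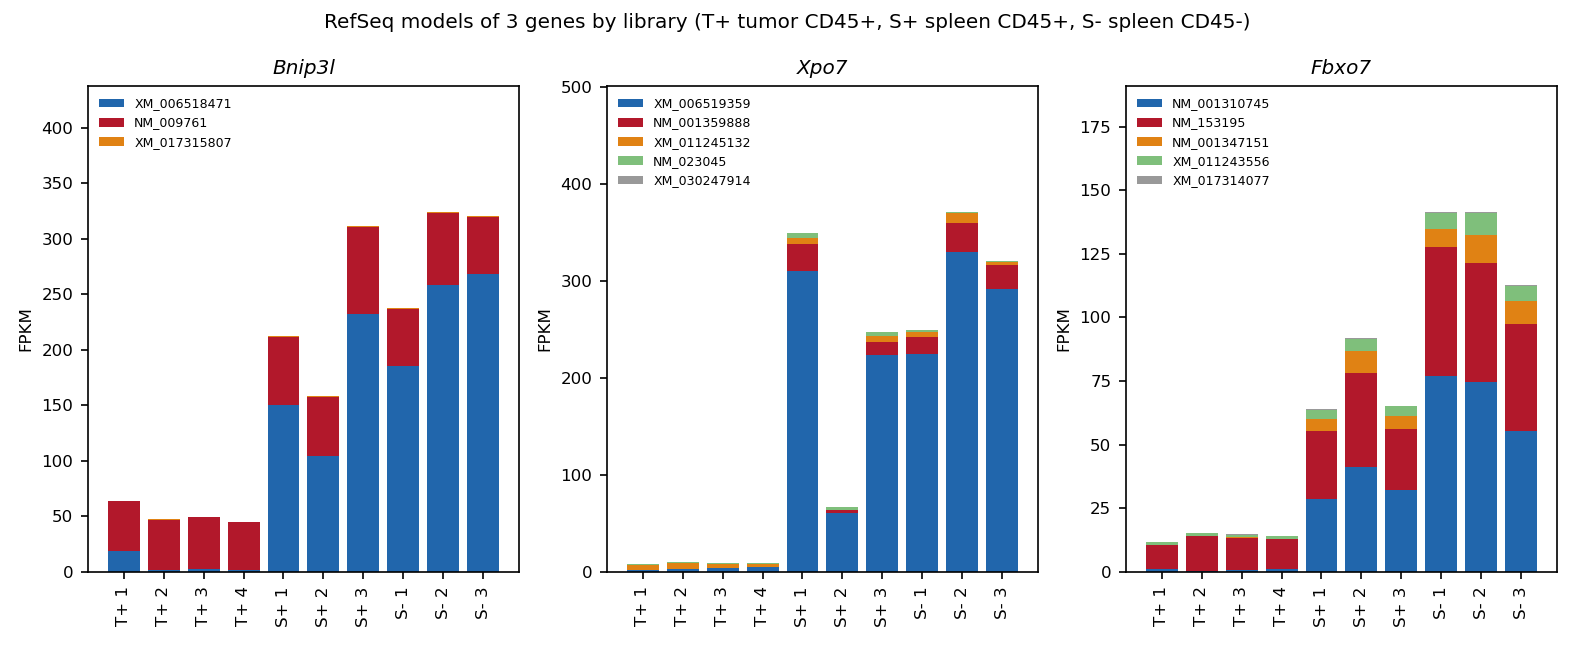
FPKM of each RefSeq model of Bnip3l, Xpo7 and Fbxo7, stacked per library (linear axis from 0), for tumor CD45+ (T+), spleen CD45+ (S+) and spleen CD45- (S-) libraries. The models XM_006518471, XM_006519359 and NM_001310745 make up the largest block of every splenic bar and stand at 0.45 to 19.0 FPKM in the tumor bars, where NM_009761 of Bnip3l stays at 43.6 to 46.8 FPKM.

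Ube2o (Entrez gene 217342, chromosome 11, 116537740 to 116581503), a ubiquitin-conjugating enzyme that in mouse reticulocytes helps to clear ribosomes and other proteins, had 6.33, 5.62, 5.76 and 5.53 FPKM in tumor CD45+ libraries, 131, 53.2 and 117 FPKM in spleen CD45+ libraries and 199, 190.0 and 184 FPKM in spleen CD45- libraries. The 3 groups did not overlap. Ube2o fell by 3.79 on the log2 scale (SE 0.30) between tumor and spleen CD45+ cells (adjusted p = 2.49e-05 by limma). It fell by 1.02 (SE 0.34) between spleen CD45+ and spleen CD45- cells (adjusted p = 0.0336), and by 0.62 without spleen CD45+ replicate 2. The splenic call was lost without any one spleen CD45- library (adjusted p = 0.0787 to 0.103), with no filter on low values (0.0634) and in the common-sum fit (0.117). Its main model NM_173755 fell by 4.19 in tumor CD45+ cells (SE 0.30, adjusted p = 1.51e-05) and held 49.8% to 65.0% of the gene there, against 79.8% to 82.2% in spleen CD45+ libraries (exact permutation p = 0.057, adjusted 0.143). The predicted model XM_011248960 had 1.44 to 2.29 FPKM in tumor CD45+ and 4.05 to 18.0 FPKM in spleen CD45+ libraries, and fell by 2.03 (SE 0.44, adjusted p = 0.0047).

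Ube2h (Entrez gene 22214, chromosome 6, 30211289 to 30304539), the ubiquitin-conjugating enzyme that works with the GID/CTLH ligase in erythroid cells, had 9.39, 11.6, 12.5 and 11.8 FPKM in tumor CD45+ libraries, 73.4, 20.98 and 59.8 FPKM in spleen CD45+ libraries and 73.0, 88.6 and 80.3 FPKM in spleen CD45- libraries. Spleen CD45+ replicate 2 lay far below the other splenic libraries, and replicate 1 overlapped with spleen CD45- cells. Ube2h fell by 1.92 on the log2 scale (SE 0.39) between tumor and spleen CD45+ cells (adjusted p = 0.00349 by limma), and by 2.45 without spleen CD45+ replicate 2. Between spleen CD45+ and spleen CD45- cells its log2 difference of -0.81 ± 0.43 did not pass (adjusted p = 0.15), and it was -0.28 without that library. The model NM_009459 held 86.2% or more of the gene in every library.

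Trim58 (Entrez gene 216781, chromosome 11, 58640465 to 58652404), a ubiquitin ligase that in mouse erythroblasts acts on dynein during enucleation, was listed at 0 in most tumor libraries. It had 0.06, 0, 0 and 0 FPKM in tumor CD45+ libraries, 35.1, 15.3 and 30.8 FPKM in spleen CD45+ libraries and 41.3, 44.6 and 47.9 FPKM in spleen CD45- libraries. The 3 groups did not overlap. Since tumor libraries were below 1 FPKM, the filter left Trim58 no call but a fall there, which passed (adjusted p = 4.31e-06 by limma), and no fold is given against values listed at 0. The log2 difference of -0.78 ± 0.31 between spleen CD45+ and spleen CD45- cells missed the threshold (adjusted p = 0.067). Without spleen CD45+ replicate 2 it was -0.43 and passed (0.0258), and without replicate 1 it passed as well (0.0415). The tables list Trim58 as 1 accession and a numbered copy of it, and both were summed. The 250 bases before the start of Trim58, listed at 0 in 3 of 4 tumor libraries, and of Gabarapl2, which kept at least 74.0 FPKM there, are printed beside each other from RefSeq's promoter windows (GRCm38.p6, + strand, chr11:58640215-58640464 and chr8:111940453-111940702), with matches to the GATA motif (AGATAA, or the same letters with T first, G last or both, on either strand) and to the CACCC motif (CCNCNCCC, on either strand) in capitals.
Trim58: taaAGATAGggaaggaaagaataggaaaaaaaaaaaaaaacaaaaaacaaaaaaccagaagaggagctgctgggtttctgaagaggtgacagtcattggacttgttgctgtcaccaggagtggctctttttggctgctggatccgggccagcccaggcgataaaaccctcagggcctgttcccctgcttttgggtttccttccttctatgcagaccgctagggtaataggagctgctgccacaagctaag
Gabarapl2: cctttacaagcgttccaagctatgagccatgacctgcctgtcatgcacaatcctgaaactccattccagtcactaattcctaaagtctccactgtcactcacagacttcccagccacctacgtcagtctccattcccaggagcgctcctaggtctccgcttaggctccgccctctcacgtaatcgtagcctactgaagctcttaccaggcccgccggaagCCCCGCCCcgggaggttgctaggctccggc
The Trim58 stretch holds 47.6% G or C, 3 CpG dinucleotides and 1 GATA match, 247 bases before the start. The Gabarapl2 stretch holds 57.2% G or C, 12 CpG dinucleotides and 1 CACCC match, 30 bases before the start.

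Windows from 250 bases before to 50 after a start were given for 7 of the 10 genes, 9 windows in all, and not for Bnip3l, Xpo7 and Ube2o. A GATA match, the core bound by the erythroid factor Gata1, lay in 2 of the 9 windows, those of Trim58 and of one Ube2h start, and in 29.8% of all 32851 windows. A CACCC match, a form bound by Klf1, lay in 6 of the 9 and in 49.5% of all windows. The E-box CACGTG lay in 1 window of Fbxo7 and in 7.15% of all, and the forkhead motif GTAAACA, a form bound by Foxo factors, in 1 window of Ube2h and in 3.65% of all. Both strands were searched, and no match of one motif overlapped one of another. A match is only a run of letters and says nothing of whether a factor was bound.

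Xpo7 (Entrez gene 65246, chromosome 14, 70662126 to 70770864), a nuclear export receptor needed for nuclear maturation of mouse erythroblasts, had the largest fitted fall apart from Trim58. It had 7.81, 10.02, 9.08 and 9.30 FPKM in tumor CD45+ libraries, 349.65, 66.9 and 247 FPKM in spleen CD45+ libraries and 249.5, 371 and 320.5 FPKM in spleen CD45- libraries. Spleen CD45+ replicate 1 was as high as the spleen CD45- libraries and replicate 2 was far below them, so this group spread more than for any other gene of the set. Xpo7 fell by 4.17 on the log2 scale (SE 0.50) between tumor and spleen CD45+ cells (adjusted p = 0.000235 by limma), and by 4.88 without spleen CD45+ replicate 2. Between spleen CD45+ and spleen CD45- cells the log2 difference was -0.78 ± 0.57 (adjusted p = 0.277), and -0.07 without that replicate. Its models parted as those of Bnip3l did. XM_006519359 had 2.04, 2.70, 3.91 and 4.41 FPKM in tumor CD45+ libraries, 310.2, 60.9 and 223 FPKM in spleen CD45+ libraries and 225, 330.2 and 291 FPKM in spleen CD45- libraries, and fell by 5.29 between tumor and spleen CD45+ cells (SE 0.52, adjusted p = 8.03e-05). XM_011245132 had 4.98, 6.14, 3.97 and 3.68 FPKM in tumor CD45+ libraries, 6.34, 0.34 and 5.53 FPKM in spleen CD45+ libraries and 5.51, 10.3 and 3.53 FPKM in spleen CD45- libraries. Its groups overlapped and it did not pass (log2 difference 0.49 ± 0.56, adjusted p = 0.478), with a value of -0.30 without spleen CD45+ replicate 2. NM_001359888 was listed at 0 in every tumor library, against 27.6, 2.50 and 14.1 FPKM in spleen CD45+ libraries. The share of XM_006519359 was 26.1% to 47.4% in tumor CD45+ libraries, 88.7% to 90.9% in spleen CD45+ and 89.0% to 90.8% in spleen CD45- libraries. The tumor difference in share had an exact permutation p of 0.057 and an adjusted p of 0.143, and the splenic one had a p of 1.0.

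A minor model of Xpo7 was the only model of the set that rose in spleen CD45+ cells. NM_023045 had 5.41, 3.22 and 4.24 FPKM in spleen CD45+ libraries and 1.81, 0.97 and 1.19 FPKM in spleen CD45- libraries. Its groups did not overlap, and it rose by 1.18 on the log2 scale (SE 0.26, adjusted p = 0.00982 by limma), where 33.4% of 16362 models tested were called higher and 4.85% lower. Median-ratio scaling ended that call (adjusted p = 0.0573). In tumor CD45+ libraries it stood at 0.78, 1.18, 1.18 and 1.2 FPKM and fell by 1.33 against spleen CD45+ cells (SE 0.20, adjusted p = 0.000721). Of the 22 tested models of the set in the tumor comparison 21 fell and none rose, where 25.3% of 20321 models were called lower and 32.4% higher. Trim58 enters this count as a model and as its numbered copy. Both of these, NM_001359888 of Xpo7, NM_001347151 of Fbxo7 and NM_001364358 of Map1lc3b were below 1 FPKM in every tumor library. So were XM_006533106 of Ube2o and NM_001347394 and XM_011249420 of Ulk1. The filter on low values left those models no call but a fall. Of 23 tested in the splenic comparison 5 fell, namely NM_001310745 and NM_153195 of Fbxo7, XM_006533106 of Ube2o, and NM_001347394 and NM_009469 of Ulk1. Each of these 5 calls was lost when a library was left out. The call on NM_153195 was lost without spleen CD45+ replicate 1 or 3 or any spleen CD45- library (adjusted p = 0.105 to 0.164) and that on NM_009469 without any spleen CD45- library (0.0684 to 0.0791). NM_001310745 lost it without spleen CD45- replicate 1 or 2 (0.0577 and 0.0578), XM_006533106 without replicate 1 or 3 of that group (0.0502 and 0.063), and NM_001347394 without spleen CD45- replicate 1 or 2 or spleen CD45+ replicate 3 (0.0896 to 0.138).

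In the deposited values the order of the groups was alike for all 10 genes, with the lowest mean in tumor CD45+ and the highest in spleen CD45- cells. The share of all genes with that order was not counted. In the common-sum fit the splenic log2 difference turned to 0.076 for Map1lc3b and 0.015 for Gabarapl2. The 10 genes differed in how far the groups lay apart and in spleen CD45+ replicate 2. That library held 0.22 times the Xpo7 level of the mean of replicates 1 and 3, 0.31 times for Ube2h, 0.43 for Ube2o, 0.46 for Trim58 and 0.51 for Ulk1. It held 0.78 times that mean for Map1lc3b, and 1.42 times for Fbxo7. It was below both other spleen CD45+ libraries for 9 of the 10 genes, and the share of all genes for which it was the lowest was not counted. Alas2, the first enzyme of erythroid haem synthesis, and Hba-a1 were low there too, at 0.58 and 0.51 times the mean. Klf1 and Gata1, the erythroid transcription factors, were high, at 2.04 and 2.00 times, as were Tfrc, the transferrin receptor, at 1.66 and Epor, the erythropoietin receptor, at 1.55 times. These are ratios of 1 library to 2, with no test.

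**Figure D4:**
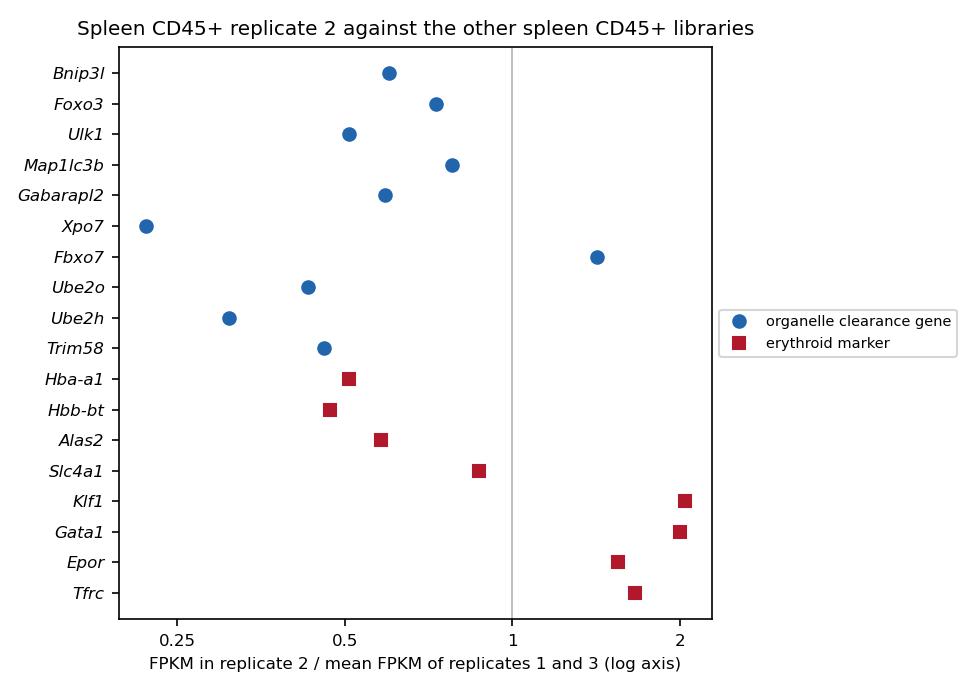
FPKM in spleen CD45+ replicate 2 divided by the mean of replicates 1 and 3 (log axis) for the 10 genes and 8 erythroid markers. All genes of the set except Fbxo7 lie left of 1, down to 0.22 for Xpo7, while Klf1, Gata1, Epor and Tfrc lie right of it, between 1.55 and 2.04.

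**Figure D5:**
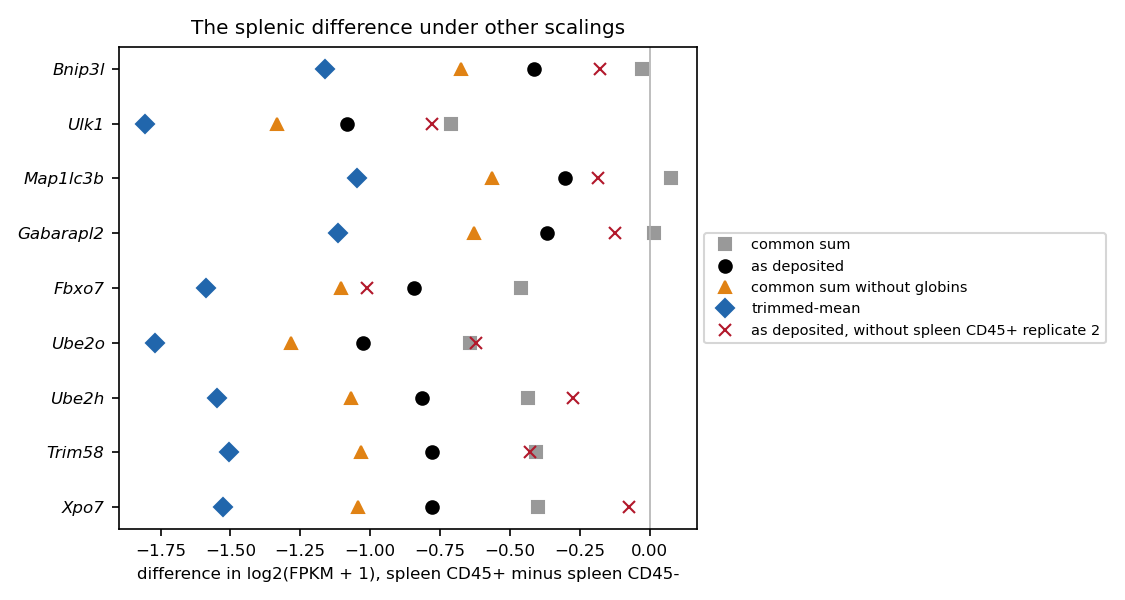
Difference in log2(FPKM + 1) between spleen CD45+ and spleen CD45- cells for the 9 tested genes, in the deposited values, after 3 other scalings and without spleen CD45+ replicate 2. Points run from the common sum at the right, where Map1lc3b and Gabarapl2 lie at 0.08 and 0.02, to the trimmed mean at the left, and leaving out replicate 2 moves Xpo7 to -0.07 and Fbxo7 to -1.01.

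Likeness between genes was measured as the root mean square difference of their centred log2(FPKM + 1) values over the 10 libraries, where a smaller value is a closer match. Within the set the closest pair was Ulk1 and Ube2h, at 0.28, followed by Xpo7 and Ube2o at 0.35, and the farthest was Map1lc3b and Trim58, at 2.13. Of 6616 other genes with a mean of at least 8 FPKM, those nearest to the mean of the 9 tested genes were Arl4a, which encodes a small GTPase, at 0.14, Fbxo34, an F-box gene, at 0.16, Psme3, a proteasome activator subunit, at 0.18, Slc1a5, a transporter of neutral amino acids, at 0.18, and Tcp11l2 at 0.20. Arl4a had 6.09 to 6.42 FPKM in tumor CD45+, 27.6 to 43.3 FPKM in spleen CD45+ and 52.8 to 67.3 FPKM in spleen CD45- libraries. These values are descriptions over libraries that fall into 3 groups, with no test.

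Other genes of the same pathways did not move as one in tumor CD45+ cells, on the background of 37.7% of all genes tested that rose and 26.0% that fell. Of 17 genes of autophagy initiation 2 rose and 10 fell (median log2 difference -0.71). Among them Atg9a, the membrane protein that seeds autophagosomes, fell to 7.10 ± 0.76 FPKM in tumor CD45+ cells, against 25.2 ± 1.82 FPKM in spleen CD45+ cells (SD, n = 4 and 3; log2 -1.70, adjusted p = 3.86e-05 by limma), and Wipi2 fell by 1.57. Nrbf2 and Atg101 rose by 0.77 and 0.67, and both calls were lost after scaling without globins (adjusted p = 0.168 and 0.281), that on Atg101 also with median-ratio scaling (0.0537). Of 13 genes of ATG8 conjugation and processing 7 rose and 2 fell (median 0.46), or 4 and 3 after scaling without globins (0.01). Gabarap, the name-giving relative of Gabarapl2, rose to 640.2 ± 73.0 FPKM in tumor CD45+ cells, against 233 ± 39.4 FPKM in spleen CD45+ cells (log2 1.46, adjusted p = 0.000204), and the protease gene Atg4a rose by 1.38. Its relative Atg4d fell to 9.44 ± 0.61 FPKM, against 80.5 ± 8.79 FPKM (log2 -2.96, adjusted p = 1.91e-06), and Atg4b fell by 1.71. Of 12 tested receptor genes 4 rose and 4 fell (median -0.05, and 0.20 in the common-sum fit), or 5 and 7 without spleen CD45+ replicate 2.

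Bnip3, the closest relative of Bnip3l, went the other way in tumor. It rose to 169 ± 11.4 FPKM in tumor CD45+ cells, against 4.25 ± 2.42 FPKM in spleen CD45+ cells (SD, n = 4 and 3; log2 5.15 ± 0.34 SE, adjusted p = 9.87e-06 by limma). Fkbp8, another mitochondrial receptor, rose by 0.84, while Optn, a cargo receptor, fell to 2.23 ± 0.31 FPKM against 33.8 ± 5.40 FPKM (log2 -3.43) and Bcl2l13 fell by 1.72. Of 11 tested genes of the FOXO family and its known targets 1 rose and 5 fell (median -1.13), or 2 and 7 without spleen CD45+ replicate 2, with Klf6 higher by 2.39 and Foxo4 and Gadd45a lower by log2 differences of -2.55 and -2.89. Beside these changes stand the macrophage markers, of which 12 of 13 rose in tumor CD45+ cells, where 37.7% of all genes tested rose and 26.0% fell.

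Partners of the ubiquitin enzymes fell together with them only in part. Of 11 genes of the GID/CTLH ligase 1 rose and 6 fell in tumor CD45+ cells (median -0.72), where 37.7% of all genes tested rose and 26.0% fell. Ranbp10, one of its subunits, fell to 6.21 ± 0.37 FPKM, against 140 ± 7.36 FPKM in spleen CD45+ cells (SD, n = 4 and 3; log2 -4.29, adjusted p = 2.58e-07 by limma), and Rmnd5a fell by 1.59. The rise of Maea by 0.34 was lost in 13 of the other fits run, among them those without any one tumor library or without spleen CD45+ replicate 1 or 3, and turned to -0.12 after scaling without globins. Of 6 genes of the SCF core and Fbxo7 partners 3 rose and 2 fell (median 0.19, and -0.28 after scaling without globins), with Psmf1, the proteasome inhibitor that binds Fbxo7, lower by a log2 difference of -2.06, Cul1 at -0.68, Cdk6 at 1.34 and Rbx1 at 0.89. The Cul1 call was lost in the common-sum fit (adjusted p = 0.255), and that of Rbx1 after scaling without globins (0.0835). Of 12 other ubiquitin genes of red cells 3 rose and 6 fell (median -1.16), and by limma none rose after trimmed-mean scaling or without tumor CD45+ replicate 2, and 1 without tumor CD45+ replicate 1. Ubac1 and Rnf123, which encode subunits of the KPC ligase, fell to 15.5 ± 1.23 and 5.58 ± 0.62 FPKM, against 377 ± 87.3 and 111 ± 16.6 FPKM in spleen CD45+ cells (log2 -4.50 and -4.08).

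Of 20 genes of nuclear condensation and enucleation 6 rose and 9 fell in tumor CD45+ cells (median -0.18, and 0.06 in the common-sum fit). Of all genes tested, 37.7% rose and 26.0% fell. Tal1, an erythroid regulator, fell to 1.25 ± 0.53 FPKM in tumor CD45+ cells, against 200.2 ± 77.6 FPKM in spleen CD45+ cells (SD, n = 4 and 3; log2 -6.44, adjusted p = 1.17e-06 by limma), and E2f2 fell by 4.69. Vim, the filament protein vimentin that erythroblasts lose before they expel the nucleus, rose to 2538 ± 193 FPKM, against 127 ± 46.9 FPKM (log2 4.39, adjusted p = 7.47e-06), and the GTPase gene Rac1 rose by 1.64.

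Across the CD45 gate in spleen 6 of the same 8 lists held more rises than falls in the deposited values, and the receptors and the other ubiquitin genes more falls, on a background where 50.5% of genes tested rose and 5.02% fell. Autophagy initiation had 6 of 17 higher and 2 lower (median 0.16), ATG8 conjugation 4 of 12 higher and 1 lower (0.18), the FOXO list 4 of 11 higher and 1 lower (0.24), the GID/CTLH ligase 4 of 11 higher and 1 lower (0.18), the SCF list 2 of 6 higher and none lower, or 1 lower at an unadjusted p below 0.05 (0.49) and the nuclear list 8 of 20 higher and 2 lower (0.28). All these medians were below that of all genes, 0.67, and turned negative after trimmed-mean scaling, between -0.25 and -0.50. The counts turned round with them, to 3 higher and 8 lower for initiation, 3 and 6 for conjugation, 3 and 4 for the FOXO list, 2 and 4 for GID/CTLH, 1 and 1 for SCF and 4 and 10 for the nuclear list. The receptors had 2 of 12 higher and 4 lower (median -0.27, and 0.11 in the common-sum fit). The other ubiquitin genes had no rise by limma, or 1 at an unadjusted p below 0.05, with 5 of 12 lower (median -0.41, and -0.02 in the common-sum fit). Without spleen CD45+ replicate 2 the falls numbered 2 rather than 1 in the conjugation, FOXO and GID/CTLH lists and 6 rather than 2 in the nuclear list, and the SCF list had 1 fall and the other ubiquitin genes 1 rise. The conjugation, receptor and SCF lists each held 1 tested gene below 1 FPKM in every spleen CD45- library, and the FOXO list 2. The filter on low values left those no call but a rise.

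Atg4d was among the genes that fell in spleen CD45+ cells, with 80.5 ± 8.79 FPKM in spleen CD45+ and 188 ± 20.8 FPKM in spleen CD45- cells (SD, n = 3 each; log2 -1.21, adjusted p = 0.00199 by limma). Ranbp10 fell by 0.80 on the log2 scale, Ubac1 by 0.95, Rnf123 by 0.77, Atg9a by 1.02, Optn by 0.83 and Foxo4 by 0.73, and the common-sum fit ended these 6 calls (adjusted p = 0.0688 to 0.29). Rnf123 and Foxo4 also lost theirs without spleen CD45- replicate 3 (0.0542 and 0.0594). E2f2 had 203 ± 27.9 FPKM in spleen CD45+ and 445 ± 21.8 FPKM in spleen CD45- cells (log2 -1.14, adjusted p = 0.00219), and Lmna, which encodes lamin A, fell by 1.15 (adjusted p = 0.011, and 0.0869 in the common-sum fit and 0.0521 without spleen CD45- replicate 1). Genes that rose included Atg3, an enzyme of ATG8 conjugation, at 28.5 ± 5.26 FPKM in spleen CD45+ and 5.08 ± 0.62 FPKM in spleen CD45- cells (log2 2.27, adjusted p = 0.000663), Pik3c3 and Uvrag of the lipid kinase complex (1.22 and 1.40), Ranbp9 (1.29) and Vim (4.97). Beside these rises, markers of granulocytes rose for 13 of 13 genes, of B cells for 9 of 9, of T and NK cells for 9 of 10 and of monocytes and macrophages for 9 of 12. In that order 3, 3, 7 and 2 of the tested markers were below 1 FPKM in every spleen CD45- library. The filter on low values left those no call but a rise.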

How the data were processed

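The authors deposited 1 table per library of FPKM values with 2 decimals for 61685 RefSeq transcript models. The unit was read from the values: per-library sums differ (801072 to 1367791), and sums weighted by transcript length lie between 953307 and 1137767. RNA was isolated with TRIZOL and sequenced by a company, per the labels' protocols, and the submitters' processing notes list the build GRCm38.p6. No source used here gives the aligner, the quantifier, the strand setting or the division of reads among overlapping models.

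Models were matched to symbols through the RefSeq table (60167 of 61685; the other 1518 held 0.423% to 1.064% of each library's FPKM) and summed over 17603 genes. Genes reaching 1 FPKM in at least 3 libraries of a comparison were tested on log2(FPKM + 1), a scale that understates folds of low genes, by limma 3.58.1 in R 4.3.3 with an intensity trend, a fit per comparison, no block and Benjamini-Hochberg adjustment over all genes tested, at 0.05. The plan allowed for counts or FPKM, and FPKM was found. The fit was checked on simulated data. Model-level fits used the same settings over all models and were chosen after seeing the data. Shares of models were compared by exact two-sided permutation tests. Implied depth came from the smallest steps in the values. Calls below 1 FPKM rest on few fragments.

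The 10 genes and all gene lists were chosen with earlier results of these data known. From each other list, at most 2 genes called higher and 2 called lower with the smallest adjusted p could be named in each comparison. The genes most alike were the 5 with the smallest likeness value among those of at least 8 FPKM on average. Alternatives were pseudocounts of 0.1 and 0.5, no filter or one at 5 FPKM, trimmed-mean, median-ratio and common-sum scaling, a common sum without globins, the highest model per gene, no trend, all groups in 1 fit, a replicate block and each library left out. Exon structures came from GENCODE M21 and sequences from RefSeq's tables. Tables and figures were made with matplotlib 3.10.9, pandas 2.3.3 and scipy 1.17.1 on numpy 2.4.6, under Python 3.11.15.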

Additional observations from a re-analysis of the deposited data

Results flagged for a closer look

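Within the 4 tumor CD45+ libraries, 5 of 28 sets of values held 1 library far from the others by Dixon's test. Chance gives about 1 in 20 for untied, separate sets, but in 3 of the 5 the other values are tied at 0, so that any fragment stands out, and Trim58 enters as a gene and as its model, so the counts cannot be compared. The predicted Bnip3l model XM_006518471 had 18.99 FPKM in tumor CD45+ replicate 1, against 1.29 to 2.03 FPKM in the other tumor libraries. The Xpo7 model NM_023045 had 0.78 FPKM in the same library, against 1.18 to 1.2 FPKM in the others. Trim58, and its model NM_001039047, had 0.06 FPKM in that library and were listed at 0 in the others. Foxo3 had 0.05 FPKM in tumor CD45+ replicate 3 and was listed at 0 in the others. The last 3 values rest on few fragments.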

How the results depend on the processing

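In the tumor comparison 9 of 9 tested genes fell under the alternatives run, with 3 exceptions. The replicate block and the common sum left 8, both without Map1lc3b (adjusted p = 0.0746 and 0.161), and with no filter on low values Foxo3 was tested too and 10 of 10 fell. In the splenic comparison 3 fell in the deposited values, 8 with trimmed-mean scaling, 8 with median-ratio scaling, 5 with a common sum without globins and 0 with a common sum, by limma, and leaving out 1 library gave 0 to 4. None rose in any of these fits. Map1lc3b turned to 0.076 and Gabarapl2 to 0.015 on the log2 scale with a common sum, neither past the threshold. Among models, Bnip3l NM_009761 turned to -0.281 with trimmed-mean and -0.311 with median-ratio scaling and Map1lc3b NM_026160 to 0.073 with a common sum in the splenic comparison, and Xpo7 XM_011245132 to -0.302 without spleen CD45+ replicate 2 in the tumor comparison, over a range of -0.302 to 0.924 when 1 library was left out. The cause was not tested. The median of all genes in the splenic comparison was 0.67 in the deposited values, 0.02 with trimmed-mean scaling, 0.97 with a common sum and 0.45 without globins, and the share of calls that were higher was 91.0%, 57.4%, 97.9% and 81.8%. Median-ratio scaling gave 53.5%. In the tumor comparison that share was 59.2% in the deposited values, 41.1% without globins and 70.3% with a common sum. Same-numbered libraries shared deviations with correlations of 0.105, 0.068 and -0.014 in the splenic comparison and -0.175, -0.1 and -0.044 in the tumor comparison. Deviations from means of only 3 or 4 libraries cannot settle whether the numbers pair the libraries. With the replicate block 3 genes fell in the splenic comparison. Of list genes named as called in tumor, the block ended the calls of Nrbf2, Atg101, Maea, Cul1 and Rbx1 (adjusted p = 0.0579, 0.0745, 0.287, 0.0814 and 0.0544). Depth limits values below 1 FPKM, and only 3 or 4 libraries a group limit every test.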
